A study of Mus musculus with 6 samples.

Results

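The chemokine genes of 2 mouse mammary tumor cell populations, T1 and T2, and the genes of their receptors were described. Members were taken by gene symbol, as every name beginning with Ccl, Cxcl, Ccr, Cxcr, Xcr, Xcl or Ackr and a digit, together with Cx3cl1 and Cx3cr1. The rule gave 61 of 24129 gene names, of which 38 were ligands and 23 receptors, and it used no measured value.

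Both populations came from 4T1 cells, a mammary carcinoma line of BALB/c mice that models triple-negative breast cancer, here tagged with GFP and grown as a tumor in the mammary fat pad. One such tumor was sorted for GFP-negative fibroblasts positive for CD140a (Pdgfra). In their culture, GFP-positive tumor cells came to outnumber the fibroblasts. T1 and T2 cells were sorted by GFP from this mixed culture, and the parental 4T1GFP cells were not analysed here. T1 cells, labelled 4T1A, had low GFP, grew attached with an epithelial shape and were aggressive in mice, whereas T2 cells, labelled 4T1NA, grew round and loosely attached, divided slowly and were less aggressive. RNA sequencing was done on 3 replicates of each population, all kept in DMEM/F-12 medium with serum, but T1 cells were passaged as attached cells and T2 cells like a suspension, so this difference in handling cannot be told apart from the population. The study's methods report at least 3 biological replicates for all experiments, and the labels call the replicates independent. Neither says whether they were separate cultures, so p-values measure the spread between these samples, which may be technical.

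Chemokines are small secreted proteins that attract cells bearing the matching G protein-coupled receptor. They are grouped by the spacing of their first cysteines into CXC, CC and CX3C families, and Cxcl16 and Cx3cl1 differ from the rest in being made with a membrane anchor from which proteases can release them. In tumors, chemokines made by cancer cells recruit neutrophils, monocytes or lymphocytes, and some act on the cancer cells themselves, while atypical receptors (Ackr) bind chemokines without classical G protein signalling.

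The libraries held between 18133227 and 20839686 reads on genes, and 1 read was worth 0.928 to 1.06 normalized counts. Krt8 and Krt18, keratins of simple epithelia, were abundant in both populations, with means of 22070 and 23270 normalized counts in T1 cells and 19200 and 21660 in T2 cells. Epcam, an epithelial adhesion gene, averaged 3141 ± 314 in T1 but only 34.7 ± 3.49 in T2 cells (SD, n = 3). The other epithelial markers with reads, Cdh1, Krt7, Krt14 and Krt19, were also far lower in T2 cells. Their means were 14750, 33020, 3795 and 3177 in T1 and 465, 274, 3.04 and 2.91 in T2 cells. Krt5 had no read. Of 17 leukocyte markers in the table, 7 had no read in any library (among them Tyrobp, Fcer1g, Cd3e, Cd3g, Adgre1 and Nkg7), and the summed level of the 17 was 388 to 470 normalized counts in T1 libraries and 173 to 210 in T2 libraries. Most of the sum in T1 cells was Cd14, a receptor for bacterial lipopolysaccharide that other cells can also make, at 340 ± 30.2 in T1 and 83.1 ± 16.9 in T2 cells. Cd68, another of the 17, had 72.9 ± 14.8 in T1 and 94.6 ± 20.7 in T2 cells. Ptprc, the pan-leukocyte CD45 gene, had no read in T1 cells and 2.78 to 6.14 normalized counts in T2 cells. The 8 endothelial markers summed to at most 16.9 normalized counts in any library. The 13 fibroblast markers summed to 742 to 892 in T1 and 2142 to 2668 in T2 libraries, mostly Col6a1 and Pdgfra. Of the 5 fibroblast markers compared, Pdgfra was past both filters defined below and lower in T1 cells, as were 4.20% of all genes. Postn (145 normalized counts in T1 and none in T2 cells), Loxl1 (24.3 and none) and Col1a1 (22.4 and 0.326) were past both and higher, as were 4.17% of all genes. Col3a1, Lum, Pdgfrb, Thy1 and Mfap5 had no read. The part of such cells in the results was not tested.

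A read was found for 29 of the 61 members and for 15710 of all 24129 gene names, of which 11514 were compared. Of the 61, 32 had no read in any library (22 ligands and 10 receptors), 17 had reads but a mean below 10 normalized counts over the 6 samples, and 12 reached that level and were compared (8 ligands and 4 receptors). A gene was called different at 2 filters taken from the study's methods, an adjusted p-value below 0.01 together with a log2 fold change larger than 2 in size. Unless an alternative is named, p-values below are from limma on log2(normalized count + 1), adjusted by Benjamini and Hochberg over the 11514 genes compared. Log2 fold changes are T1 minus T2 on that scale. Values given without the minimum level come from a fit on the 15710 genes with a read and were adjusted over them.

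Of the 12 members compared, 4 were past both filters and higher in T1 cells (Cxcl16, Ccl5, Cxcl10 and Cxcl5), against 4.17% of all genes compared. Another 2 were past both filters and lower in T1 cells (Cx3cl1 and Cxcr3), against 4.20% of all genes. By the adjusted p-value alone 5 members were higher and 2 lower, where 25.1% and 24.4% of all genes were. All T1 values lay above all T2 values for 5 members and below them for 3, and for all genes these shares were 34.2% and 33.9%. The median log2 fold change was 0.38 over the 12 members and -0.0055 over all genes compared, with 2.30 over the 8 ligands and -0.35 over the 4 receptors. In either direction 6 members were past both filters (8.37% of all genes), 7 were past the adjusted p-value (49.5%) and 8 did not overlap (68.1%). The non-overlap of 8 in 12 is thus near the share of all genes. For 4 of the 12 (Ccl5, Cxcl10, Ccr10 and Cxcr3) the mean was below 10 in one population, so they entered through the other, and these counts and medians are a description and not support for a direction.

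**Figure D1:**
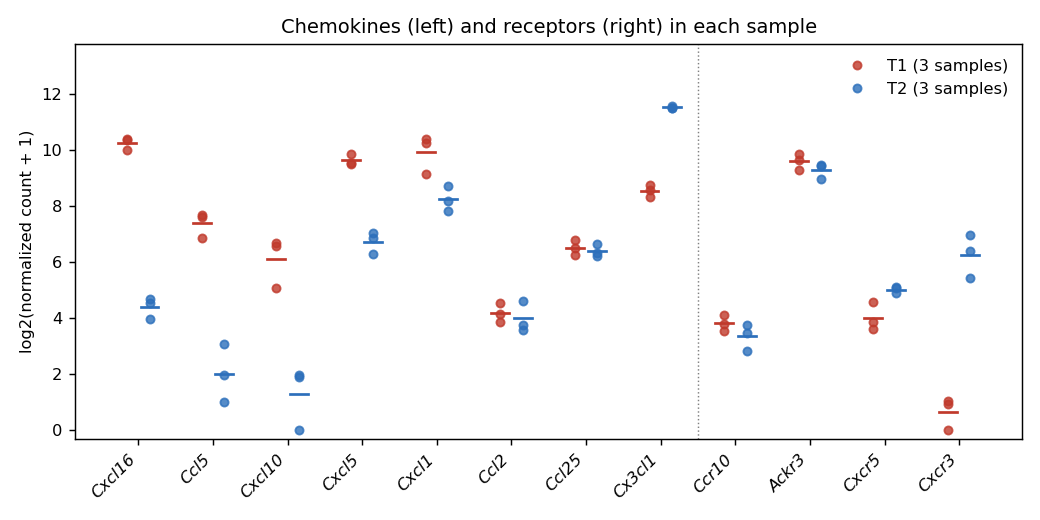
The 12 members compared, as log2(normalized count + 1) in each sample, with chemokines left of the dotted line and receptors right of it. Points are the 3 T1 samples (red) and 3 T2 samples (blue) and bars are group means. Points of Cxcl16, Ccl5, Cxcl10, Cxcl5 and Cxcl1 lie higher in T1, those of Cx3cl1, Cxcr3 and Cxcr5 lie higher in T2, and the others overlap.

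Among the CXC ligands that bind Cxcr2 and draw neutrophils, Cxcl5 and Cxcl1 were both abundant in T1 cells. Cxcl5 had 935, 727 and 754 normalized counts in the T1 samples and 77.4, 131 and 115 in the T2 samples. The groups did not overlap, and the means of 805 ± 113 and 108 ± 27.6 (SD, n = 3) differed 7.47-fold, with a log2 fold change of 2.91 ± 0.20 (SE, limma adjusted p = 7.47e-07). Cxcl1 had 1234, 1358 and 576 normalized counts in T1 cells and 227, 427 and 294 in T2 cells. T1 replicate 3 was the lowest of its group for Cxcl1 but stood above every T2 sample. The log2 fold change of Cxcl1 was 1.69 ± 0.31 (limma adjusted p = 0.000824), with a 95% interval from 1.0 to 2.38, so Cxcl1 was past the p-value filter but not the fold filter. Without T1 replicate 3 it was past both, at 2.08 (limma adjusted p = 3.57e-05).

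Cxcl2 and Cxcl3, close relatives of Cxcl1 that also bind Cxcr2, were nearly silent. Cxcl2 had 1, 1 and 3 reads in T1 libraries and none in T2 libraries, which is no more than the 3 reads per library that a count of 0 allows, and Cxcl3 had at most 1 read in any library. These 4 ligands lie with Cxcl15, Pf4 and Ppbp in 147 kb of chromosome 5 (90759360 to 90905938, mm10), in the order Cxcl5, Ppbp, Pf4, Cxcl3, Cxcl15, Cxcl1 and Cxcl2. Cxcl15 had no read. Ppbp, a platelet CXC chemokine gene outside the naming rule, had 32.8, 37.2 and 37.1 normalized counts in T1 cells and 3.92, 3.07 and 6.495 in T2 cells. It was past both filters, with a log2 fold change of 2.79 ± 0.35 (limma adjusted p = 6.57e-05), and its groups did not overlap. Pf4, another platelet chemokine, had 1 read over the T1 libraries and 3 over the T2 libraries. Cxcl5 and Ppbp, both higher in T1 cells, were neighbours, while Cxcl1 lay between genes with almost no reads.

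The starts of Cxcl1, Cxcl2 and Cxcl3 are shown because the 3 genes shared a stretch just before the start but not their levels. The bases from 120 to 1 before each RefSeq start (GRCm38.p6, the mm10 assembly, plus strand) are at chr5:90891125-90891244 for Cxcl1, chr5:90903779-90903898 for Cxcl2 and chr5:90785981-90786100 for Cxcl3. Capitals mark matches to the NF-kB motif, the binding sequence of a transcription factor activated by inflammatory signals, searched on both strands.
Cxcl1: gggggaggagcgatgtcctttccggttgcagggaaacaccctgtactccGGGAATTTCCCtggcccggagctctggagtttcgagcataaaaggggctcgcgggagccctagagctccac
Cxcl2: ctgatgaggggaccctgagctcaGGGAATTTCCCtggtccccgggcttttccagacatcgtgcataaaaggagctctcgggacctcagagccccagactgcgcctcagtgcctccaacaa
Cxcl3: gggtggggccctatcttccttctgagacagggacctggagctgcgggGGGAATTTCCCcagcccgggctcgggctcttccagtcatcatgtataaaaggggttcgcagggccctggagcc
All 3 carried the same 11 bases in capitals, beginning 71 bases before the start of Cxcl1, 97 before that of Cxcl2 and 73 before that of Cxcl3. With 1056 normalized counts for Cxcl1 in T1 cells and almost no reads for the other two, the shared letters went with very unequal levels in the same libraries. A match describes letters only, and no binding was measured.

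Cxcl16 was abundant in T1 cells and scarce in T2 cells. This ligand of Cxcr6, also known as a scavenger receptor for oxidized lipoprotein, had 1308, 1369 and 1035 normalized counts in T1 cells and 14.7, 22.5 and 25.1 in T2 cells. The means were 1237 ± 178 and 20.8 ± 5.41 (SD, n = 3), a 59.6-fold difference, and no sample overlapped. The log2 fold change was 5.85 ± 0.21 with a 95% interval of 5.38 to 6.32 (limma adjusted p = 1.08e-08). Cxcl16 (chromosome 11, 70453983 to 70459984, minus strand) shares 552 exonic bases with Zmynd15 on the opposite strand, and the kit does not mark strand, so reads of that overlap cannot be assigned. Zmynd15 had 18.2 ± 4.29 normalized counts in T1 and 2.31 ± 1.61 in T2 cells.

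Cxcl10, an interferon-induced ligand of Cxcr3, had 95.2, 102 and 33.2 normalized counts in T1 cells and 2.94, 0 and 2.78 in T2 cells, the latter standing for 3, 0 and 3 reads. All T1 samples were higher, with T1 replicate 3 again the lowest of its group. The ratio of the means, 76.9 ± 38.0 to 1.91 ± 1.65 (SD, n = 3), was 40.3 with a counting interval of 18.3 to 111, and the log2 fold change was 4.83 ± 0.61 (limma adjusted p = 6.49e-05). The other interferon-induced ligands of Cxcr3, Cxcl9 and Cxcl11, had no read in any library. They lie beside Cxcl10 within 44 kb of chromosome 5, together with Art3, which overlaps Cxcl10 and also had no read. In the reference annotation Cxcl11 is a polymorphic pseudogene.

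The promoter of Cxcl10 is shown because it held matches to all 3 motifs searched. It runs from 250 bases before to 50 after the RefSeq start (chr5:92348840-92349139, GRCm38.p6, minus strand), and capitals mark NF-kB, AP-1 (TGANTCA) and the interferon element (TTTC, any 2 bases and TTTC again), each on either strand.
Cxcl10: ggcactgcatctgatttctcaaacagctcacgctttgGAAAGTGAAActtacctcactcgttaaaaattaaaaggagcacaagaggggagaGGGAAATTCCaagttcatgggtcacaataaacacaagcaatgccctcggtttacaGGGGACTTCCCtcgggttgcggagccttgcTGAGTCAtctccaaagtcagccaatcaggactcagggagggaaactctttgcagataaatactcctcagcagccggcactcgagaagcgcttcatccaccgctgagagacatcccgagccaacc
The interferon element began 213 bases before the start, NF-kB stretches 159 and 104 before it and AP-1 74 before it. Matches to AP-1, the site of Fos and Jun dimers, were read in the same way as those to NF-kB.

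Of the CC ligands, Ccl5 alone was past both filters. Ccl5, which attracts T cells and monocytes, had 115, 197 and 206 normalized counts in T1 cells and 2.94, 1.02 and 7.42 in T2 cells, the latter from 3, 1 and 8 reads. The groups were far apart, at means of 173 ± 49.97 and 3.795 ± 3.29 (SD, n = 3). The ratio was 45.5, with a counting interval of 25.9 to 88.7, and the log2 fold change was 5.37 ± 0.48 (limma adjusted p = 5.59e-06).

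Ccl2 and Ccl25 were not told apart between the populations. Ccl2, the main monocyte attractant, had 22.2, 16.7 and 13.7 normalized counts in T1 cells and 12.7, 23.6 and 11.1 in T2 cells. The groups overlapped, and the log2 fold change was 0.19 with a 95% interval of -0.64 to 1.01 (limma adjusted p = 0.679). Ccl25, a Ccr9 ligand best known from thymus and small intestine, had 111, 91.1 and 75.2 normalized counts in T1 cells and 80.3, 73.7 and 99.3 in T2 cells. Its groups overlapped too, at a log2 fold change of 0.12 with an interval of -0.34 to 0.59 (limma adjusted p = 0.631). Ccl25 shares 204 exonic bases with Elavl1 on the opposite strand, which at a mean of 3614 normalized counts in T1 and 2845 in T2 cells was far more abundant, and reads of the shared bases cannot be told apart.

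Below the minimum level, 3 CC ligands had at least 10 reads in some library, and all 3 had all or nearly all of their reads in T1 cells. Each reached 10 reads in T1 libraries alone, so this choice partly set the direction. Ccl6 had 13, 19 and 9 reads in T1 libraries and none in T2 libraries, so its level in T1 cells was at least 4.57-fold that of T2 cells when 3 reads were allowed per library at 0. Ccl9 had 9, 14 and 9 reads in T1 libraries and 1, 0 and 0 in T2 libraries, a ratio of 32.0 with a counting interval of 5.34 to 1300. Both are mouse chemokines of myeloid cells that bind Ccr1. Ccl20, the Ccr6 ligand, had 5, 4 and 18 reads in T1 libraries and none in T2 libraries, at least 3.02-fold higher, with 18 of its 27 reads from T1 replicate 3. When limma was run without the minimum level, the log2 fold changes were 3.80 for Ccl6 (adjusted p = 2.03e-05), 3.17 for Ccl9 (adjusted p = 0.000121) and 3.04 for Ccl20 (adjusted p = 0.000642), past both filters. The share of all genes past both filters in that fit was not computed, and the T2 values were at or near 0. These values are thus a description and not support for a direction.

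Ccl4 had 2, 5 and 3 reads in T1 libraries and none in T2 libraries, at least 1.1-fold higher. Together with Ccl5, Ccl9, Ccl6 and Ccl3 it lies within 139 kb of chromosome 11 (83525778 to 83664683). Of these 5 genes, 4 had reads and each of the 4 had nearly all of them in T1 cells, while Ccl3, the neighbour of Ccl4, had none. In another group of 6 CC ligands on the same chromosome, spanning 270 kb (82035571 to 82305690), Ccl2 was the only gene with a read.

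**Figure D2:**
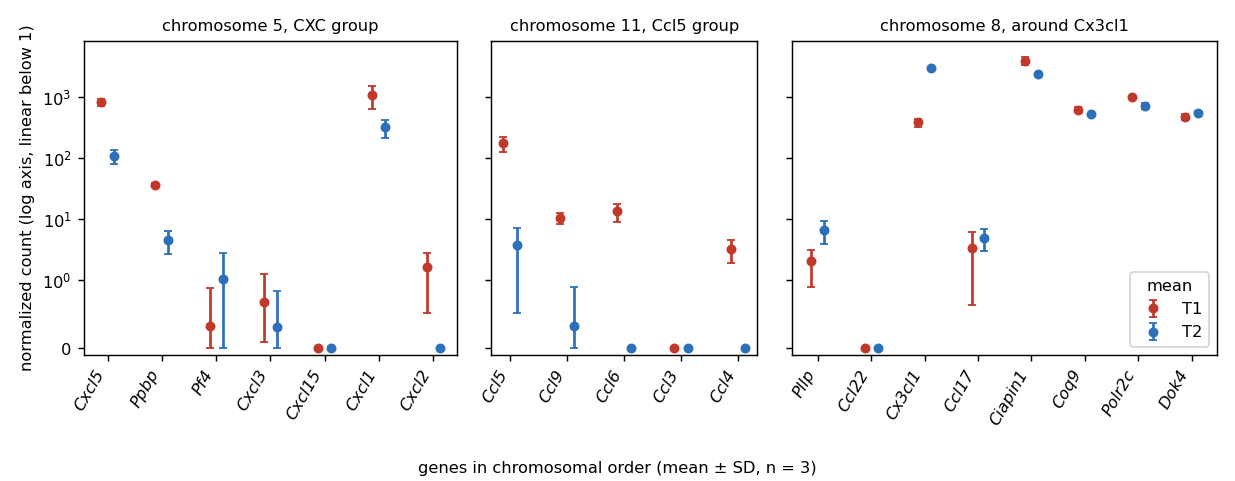
Levels of the genes in 3 chromosomal groups in their order along the chromosome, as the mean normalized count of 3 T1 samples (red) and 3 T2 samples (blue) with SD, on an axis that is logarithmic above 1 and linear below it, where bars stop at 0. In the CXC group the neighbours Cxcl5 and Ppbp and, farther along, Cxcl1 are higher in T1, 4 of 5 genes of the Ccl5 group are higher in T1, and Cx3cl1 is higher in T2 while no neighbour is past both filters.

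Cx3cl1 went the other way. The gene of fractalkine, which binds Cx3cr1 on monocytes, NK cells and T cells, had 434, 381 and 321 normalized counts in T1 cells and 2916, 2948 and 3080 in T2 cells. The groups were widely separated and the spread was small, at means of 379 ± 56.4 and 2981 ± 86.8 (SD, n = 3), 7.87-fold higher in T2 cells. The log2 fold change was -2.98 ± 0.11, with a 95% interval of -3.23 to -2.73 (limma adjusted p = 1.51e-08).

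Cx3cl1 lies on chromosome 8 (94772009 to 94782427, plus strand) between Ccl22, which had no read, and Ccl17, a Ccr4 ligand with 6, 3 and 1 reads in T1 libraries and 7, 3 and 5 in T2 libraries. None of the 4 other genes compared in this stretch, Ciapin1, Coq9, Polr2c and Dok4, was past both filters, and their log2 fold changes were 0.75, 0.26, 0.48 and -0.20. The promoter of Cx3cl1 (chr8:94771930-94772229, GRCm38.p6, plus strand) is shown beside that of Cxcl10 because the 2 genes differed in opposite directions. It is printed without capitals, as it held no match to the 3 motifs.
Cx3cl1: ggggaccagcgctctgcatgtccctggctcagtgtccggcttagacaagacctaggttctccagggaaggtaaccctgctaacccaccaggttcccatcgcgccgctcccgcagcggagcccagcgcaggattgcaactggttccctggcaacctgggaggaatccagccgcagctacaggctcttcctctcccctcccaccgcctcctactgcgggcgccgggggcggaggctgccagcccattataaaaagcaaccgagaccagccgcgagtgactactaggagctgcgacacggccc
The absence of a match concerns these 300 bases and letters only. Cxcl10 was printed for its matches, and Cxcl16, Cxcl5 and Ccl5 had no window, so whether motifs go with the direction was not tested.

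Over the RefSeq promoters, 47 windows of 43 member genes were found. The NF-kB motif was in 12 of the 47 (25.5%), against 8.46% of all 32851 mouse windows. AP-1 was in 8 (17.0%, against 7.81%), and the interferon element in 3 (6.38%, against 3.44%). Most of these genes had few or no reads, so the shares describe the family and not the difference between the populations. The windows of Ccl20 and Ccl9 also held NF-kB, beginning 80 and 35 bases before the start, and that of Ccl9 an AP-1 match 53 bases before it. That of Ccr4 held an AP-1 match 143 bases before the start. Those of Ackr3, Ccl25, Ccl6, Ccl17, Cx3cr1 and Cxcr3 held none of the 3 motifs, and Cxcl16, Cxcl5, Ccl5 and Ccl2 had no window here.

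**Figure D3:**
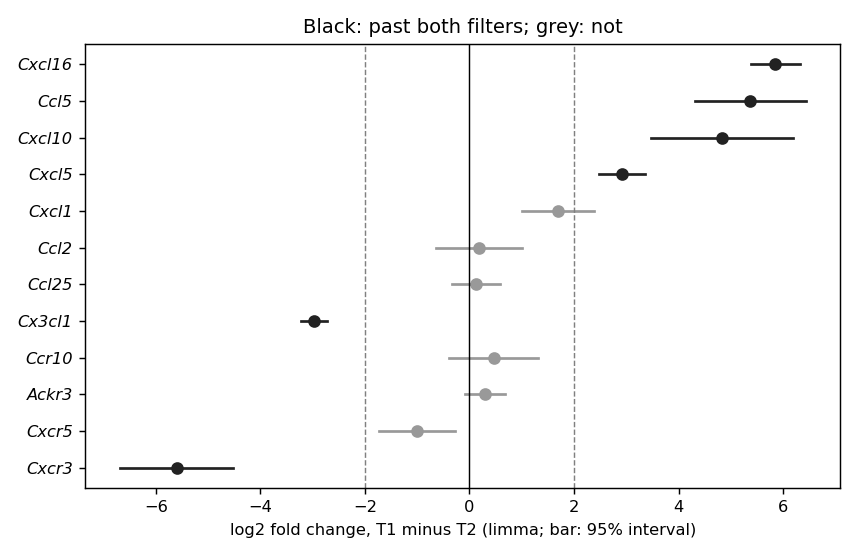
Log2 fold change of the 12 members compared, T1 minus T2, with the 95% interval of limma, and dashed lines at the fold filter of 2 in each direction. Black points were past both filters and grey ones were not. The intervals of Cxcl16, Ccl5, Cxcl10, Cxcl5, Cx3cl1 and Cxcr3 lie outside the dashed lines, and that of Cxcl1 crosses the line.

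Per kb of exon, the mixture of ligands differed as well. The length was that of all annotated exons of a gene merged, which can be longer than the transcripts made, so levels per kb are approximate. In T1 cells the mean levels were 563 normalized counts per kb of exon for Cxcl1, 432 for Cxcl5, 410 for Cxcl16, 180 for Ccl5, 96.4 for Cx3cl1 and 34.2 for Cxcl10. In T2 cells Cx3cl1 came first at 759 per kb, followed by Cxcl1 at 169 and Cxcl5 at 57.9. In both populations Ccl2 and Ccl25 lay between 11.3 and 15.4 per kb. In T1 cells Cxcl1, Cxcl5 and Cxcl16 were close enough that their order was not resolved, since Cxcl1 was above Cxcl5 in some libraries and below it in T1 replicate 3.

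Of the summed level of all ligands per kb, Cx3cl1 made up 5.72, 4.92 and 5.77% in the T1 samples and 78.1, 68.6 and 74.5% in the T2 samples. Cxcl16 made up 23.2 ± 0.91% in T1 and 0.661 ± 0.139% in T2 cells, Cxcl5 24.8 ± 4.52% and 5.56 ± 1.07%, and Cxcl1 30.8 ± 8.02% and 16.2 ± 4.18% (SD, n = 3). The share of Ccl5 was 10.6 ± 4.47% in T1 and 0.385 ± 0.323% in T2 cells. The sum itself was 1931, 1972 and 1415 normalized counts per kb in T1 cells and 950, 1093 and 1052 in T2 cells, so it was higher in each T1 sample. Without the division by length the sums overlapped, at 3879 ± 713 and 3537 ± 169. These values are of bulk RNA, in which fewer cells that make a chemokine and less of its RNA per cell cannot be told apart.

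**Figure D4:**
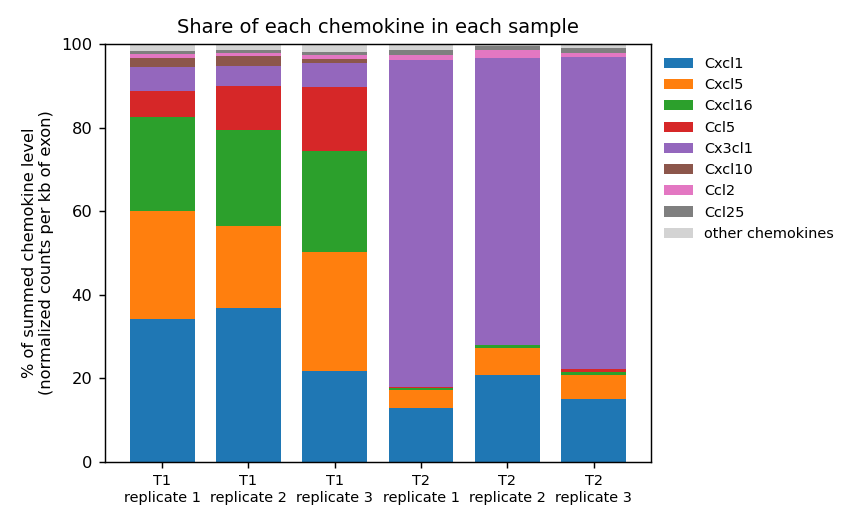
Share of each chemokine in the summed ligand level of each sample, in percent of normalized counts per kb of exon. Cx3cl1 fills 68.6 to 78.1% of the T2 bars, while Cxcl1, Cxcl5, Cxcl16 and Ccl5 fill most of the T1 bars.

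Among the receptors, Cxcr3 was past both filters. This receptor of Cxcl9, Cxcl10 and Cxcl11 is best known from activated T cells and NK cells. It had 1, 1 and 0 reads in T1 libraries and 85, 41 and 135 reads in T2 libraries, or 83.2, 42.0 and 125 normalized counts in the latter. The T2 samples varied, but each was far above every T1 sample. The ratio of T2 to T1 was 126, with a counting interval of 34.5 to 1050, and the log2 fold change was -5.60 ± 0.49 (limma adjusted p = 4.61e-06). Of the 17 leukocyte markers, the 7 with no read include the T and NK cell genes Cd3e, Cd3g and Nkg7. The 2 leukocyte markers compared, Cd14 and Cd68, had 71, 76 and 110 and 90, 115 and 84 reads in T2 libraries. In T1 libraries they had 309, 343 and 384 and 55, 78 and 90 reads. Some others had a few reads in T2 libraries, with 5, 6 and 3 for Ptprc and 5, 5 and 5 for the B cell gene Cd79a, both with none in T1 libraries. Coro1a had 4, 1 and 13 in T2 libraries against 0, 5 and 0. Csf1r, a macrophage gene, had 2, 10 and 8 reads in T1 and 1, 1 and 0 in T2 libraries. The part of blood cells in the Cxcr3 reads was not tested.

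The promoter of Cxcr3 (chrX:101734098-101734397, GRCm38.p6, minus strand) is given because Cxcr3 differed most of all receptors, and it is without capitals for want of a match.
Cxcr3: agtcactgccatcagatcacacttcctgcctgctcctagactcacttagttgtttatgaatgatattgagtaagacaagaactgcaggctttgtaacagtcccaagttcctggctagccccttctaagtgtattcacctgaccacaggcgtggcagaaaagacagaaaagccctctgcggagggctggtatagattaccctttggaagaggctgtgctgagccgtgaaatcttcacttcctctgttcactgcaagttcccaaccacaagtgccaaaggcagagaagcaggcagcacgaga

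Ackr3, an atypical receptor that takes up Cxcl12, was the most abundant receptor in both populations, at 622, 947 and 801 normalized counts in T1 cells and 691, 717 and 509 in T2 cells. The groups overlapped, and the log2 fold change was 0.30 with a 95% interval of -0.08 to 0.68 (limma adjusted p = 0.151). Per kb, Ackr3 made up 93.7 ± 2.41% of the summed receptor level in T1 and 73.5 ± 11.6% in T2 cells, where Cxcr3 made up 17.2, 9.62 and 29.4% (SD, n = 3).

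Cxcr5, the receptor that guides B cells to Cxcl13, had 23.3, 11.2 and 13.7 normalized counts in T1 cells and 33.3, 28.7 and 33.4 in T2 cells. The groups did not overlap, but the log2 fold change of -1.01 ± 0.32 missed both filters (limma adjusted p = 0.0202), and over the alternatives tried the adjusted p ran from 0.00625, without T1 replicate 1, to 0.0678. Cxcr5 shares 110 exonic bases with Bcl9l on the opposite strand, which had a mean of 1719 normalized counts in T1 and 2160 in T2 cells, and reads of the shared bases cannot be told apart. Ccr10, a receptor of Ccl27 and Ccl28, had 10.6, 13.0 and 16.6 normalized counts in T1 cells and 12.7, 6.14 and 10.2 in T2 cells. Its groups overlapped, at a log2 fold change of 0.46 with an interval of -0.40 to 1.32 (limma adjusted p = 0.322). The span of Ccr10 is overlapped by Cntnap1 on the opposite strand, with no exonic base in common.

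Below the minimum level, Ccr4, the receptor of Ccl17 and Ccl22, had no read in T1 libraries and 13, 3 and 6 reads in T2 libraries, at least 2.40-fold higher in T2 cells. The log2 fold change of Ccr4 without the minimum was -2.84 (limma adjusted p = 0.000614). Ccr4 was named through its T2 reads, so this is a description and not support for a direction. Cx3cr1, the receptor of Cx3cl1, had 14, 0 and 1 reads in T1 libraries and 0, 1 and 0 in T2 libraries, so 14 of its 16 reads came from T1 replicate 1. Its span overlaps 9 other annotated genes. The groups overlapped, and the adjusted p without the minimum was 0.238. The remaining 7 receptors with reads had at most 5 in any library, among them Ccr7, a lymph node homing receptor, with 0, 0 and 2 reads in T1 and 5, 0 and 5 in T2 libraries.

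**Figure D5:**
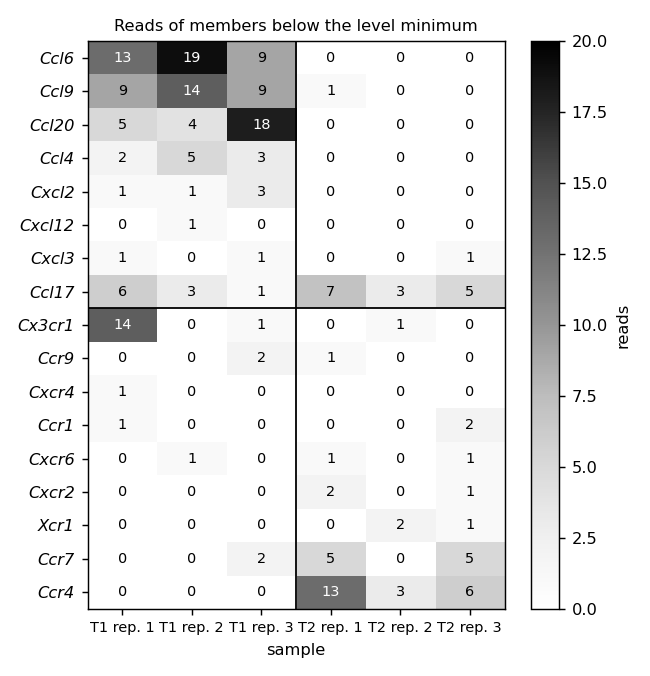
Reads of the 17 members with reads but a mean below 10 normalized counts, in each of the 6 libraries, with ligands above the horizontal line, receptors below it, and T1 left and T2 right of the vertical line. Ccl6, Ccl9, Ccl20, Ccl4 and Cxcl2 hold reads in every T1 library and at most 1 read over the T2 libraries, and Ccr4 holds reads in T2 libraries alone.

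Set as ligand and receptor pairs, most expressed ligands met no expressed receptor in the same population. Cxcr2, which binds Cxcl1, Cxcl2, Cxcl3 and Cxcl5, had no read in T1 cells and 2, 0 and 1 in T2 cells, and Cxcr1 had none. Cxcr6, the receptor of Cxcl16, had at most 1 read in any library. Ccr3, which binds Ccl5, had no read, and Ccr1, which also binds it, had 1 read over the T1 and 2 over the T2 libraries. Ccr2, the receptor of Ccl2, had no read, and Ccr9, that of Ccl25, had 2 reads over the T1 and 1 over the T2 libraries. A count of 0 allows up to 3 reads per library, or 2.96 normalized counts in T1 and 2.93 in T2 cells. A gene with no read may thus still be expressed below that level.

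For Cxcl10 and Cxcr3 the partners stood in opposite populations, with the ligand at 76.9 normalized counts in T1 and 1.91 in T2 cells and the receptor at 0.663 in T1 and 83.5 in T2 cells. Ackr3 was expressed without its ligand Cxcl12, which had 1 read in a single T1 library, and without the other Cxcl12 receptor, Cxcr4, which also had 1 read in a single T1 library. Ackr1, Ackr2 and Ackr4, the other atypical receptors, had no read.

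The genes that could act on chemokines or after them were taken from 4 lists. Of 19 genes for proteases that cleave or shed chemokines and their inhibitors, 11 were compared, and 2 were higher and 6 lower in T1 cells by the adjusted p-value alone, where 25.1% and 24.4% of all genes were. Past both filters were 3, all lower in T1 cells, against 4.20% of all genes. Mmp3, the stromelysin-1 gene, had 348, 140 and 164 normalized counts in T1 cells and 43140, 40780 and 43400 in T2 cells, a log2 fold change of -7.72 (limma adjusted p = 7.15e-09). The collagenase genes Mmp1a and Mmp13 followed at -7.65 and -7.37, from 1.30 and 4.63 normalized counts in T1 to 454 and 931 in T2 cells. The 2 higher in T1 cells were Mmp9, at 970 against 295 normalized counts (log2 fold change 1.75, limma adjusted p = 0.0005), and Mmp14. Mmp14 had 6992 against 2810 (log2 fold change 1.31, limma adjusted p = 5.97e-07). The median log2 fold change of the list was -0.86, against -0.0055 over all genes, as for the lists that follow. Adam10 and Adam17, singled out after their values were seen because they release Cx3cl1 and Cxcl16 from the membrane, had log2 fold changes of -0.86 (limma adjusted p = 8.29e-06) and -0.01 (limma adjusted p = 0.907). Adam10 had 2388 ± 141 normalized counts in T1 and 4343 ± 308 in T2 cells (SD, n = 3). Dpp4, which trims the start of several chemokines, had no read.

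Of 34 listed names of G proteins, regulators and effectors used by chemokine receptors, 33 were in the table, as Grk2 is another name of Adrbk1. Of these, 22 were compared, with 4 higher and 10 lower by the adjusted p-value (25.1% and 24.4% of all genes) and a median log2 fold change of -0.37. Past both filters 1 was higher and 2 were lower, where 4.17% and 4.20% of all genes were, so the count higher was near that share. Elmo1, a partner of Dock proteins in Rac activation, was past both filters and higher in T1 cells, at 58.3 ± 4.18 against 3.25 ± 3.15 normalized counts (log2 fold change 4.05, limma adjusted p = 4.16e-05). Rgs2, which shortens G protein signals, and Prex1, a Rac exchange factor driven by G protein subunits, were past both filters and lower. Rgs2 had 56.1, 111 and 33.2 normalized counts in T1 cells and 646, 2409 and 947 in T2 cells (log2 fold change -4.24, limma adjusted p = 3.21e-05). Prex1 had 13.9 ± 5.15 and 166 ± 36.7 (log2 fold change -3.52, limma adjusted p = 4.72e-06). The blood cell members Dock2, Rac2, Vav1 and Fgr had no read, but Was, an actin regulator of blood cells singled out after its values were seen, had 1, 3 and 1 reads in T1 and 15, 11 and 17 in T2 libraries, 8.65-fold more in normalized counts.

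Of 35 NF-kB and interferon pathway genes that can induce chemokines, 33 were compared, with 16 higher and 8 lower in T1 cells by the adjusted p-value and a median log2 fold change of 0.64. Of all genes 25.1% were higher and 24.4% lower, so the share lower was near that of all genes. Past both filters 2 were higher and 1 was lower, where 4.17% and 4.20% of all genes were, so these counts were near those shares. Il1a, the interleukin-1 alpha gene, had 70.9, 84.6 and 98.6 normalized counts in T1 cells and 4.90, 5.12 and 7.42 in T2 cells, and was past both filters at 3.66 (limma adjusted p = 2.46e-06). Ifih1, a sensor of double-stranded RNA, was past both at 2.75 (limma adjusted p = 1.32e-06), with 265 ± 9.98 against 39.2 ± 8.78 normalized counts. Fosl1, a subunit of AP-1, was lower in T1 cells, at 396 ± 90.7 against 2195 ± 404 (log2 fold change -2.48, limma adjusted p = 1.51e-06).

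Of 16 further chemokine or chemokine-like names, 12 were in the table, and the rest were former names of Ackr members. Of the 12, 8 were compared, with 5 higher and 2 lower by the adjusted p-value (25.1% and 24.4% of all genes) and a median log2 fold change of 0.60. The share lower was near that of all genes. Ppbp, described above with its chromosomal group, was the one past both filters, where 4.17% of all genes were past both and higher.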

How the data were processed

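RNA was sequenced from 3 T1 and 3 T2 samples, grouped by GEO's labels. The authors trimmed reads (Trimmomatic), aligned them to mm10 (TopHat2), counted them per gene (HTSeq) and normalized the counts with DESeq2. Versions, gene annotation and strand setting are not given in the sources used here. The deposited signal is thus a normalized count, a read count divided by a size factor. All values (100%) were whole reads within 0.01 once multiplied back, and 0 columns were unused. Library preparation used a modified TruSeq V2 protocol, which does not mark strand.

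Genes that averaged 10 or more normalized counts across all samples entered limma 3.58.1 (variance trend, R 4.3.3) on log2(normalized count + 1). This pseudocount understates fold changes of low genes. On the recovered reads, edgeR 4.0.16 called 974 genes past both filters and DESeq2 1.42.0 called 974, against 964 by limma. With 3 against 3 samples the smallest exact permutation p-value is 0.1. A fold against a population with no reads was computed against 3 reads per library. Counting intervals (95%) and these floors cover counting error only. The tests were tested on simulated data. Coordinates, exonic lengths and overlaps came from GENCODE M21 (mm10), in which 58 of the 61 names had 1 entry, and promoters from RefSeq (GRCm38.p6).

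Members and gene lists were chosen with earlier results of these data known. Every member at the minimum level was named, as were members below it with 10 or more reads in a library and members of ligand and receptor pairs, and in each list the up to 4 genes past both filters with the largest change. Other members below the minimum that are named were chosen after their values were seen. Alternatives covered the pseudocount (0.5, 5), the minimum level (none, 50), quantile normalization, limma without the trend, edgeR, DESeq2, wider filters (adjusted p below 0.05, log2 fold change above 1), the replicate number as a block and leaving out each sample. A few genes are not reported here. Figures were drawn with matplotlib 3.10.9.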

Additional observations from a re-analysis of the deposited data

How the results depend on the processing

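Of 175 log2 fold changes of members recomputed under the alternatives, 172 kept their direction and their side of the paired filters. Cxcl1 passed both without T1 replicate 3, Cxcr5 passed the adjusted p-value alone without T1 replicate 1 (0.00625), and 2 changed sign, Ccl25 to -0.02 without T1 replicate 1 (limma adjusted p = 0.956) and Ccl2 to -0.01 without T2 replicate 3 (limma adjusted p = 0.983), in ranges of -0.02 to 0.26 and -0.01 to 0.50 over the samples left out. The counts of members past both filters, 4 higher and 2 lower, were the same with edgeR, with DESeq2 and with the replicate block. Without a minimum level 8 members were higher past both filters, 9 by the adjusted p-value and 10 without overlap, the median log2 fold change was 0.32, and the added members past both filters were Ccl20, Ccl4, Ccl6 and Ccl9, higher in T1 cells, and Ccr4, lower. With a minimum of 50, Cxcl10 and Cxcr3 dropped out, leaving 3 members higher and 1 lower past both filters, 1 lower by the adjusted p-value and 1 lower without overlap, and the median over the fewer members was 1.69. It was 0.32 with a pseudocount of 5. Leaving out single samples gave 4 to 5 members higher and 2 to 2 lower past both filters, 5 to 5 and 2 to 3 by the adjusted p-value, 5 to 7 and 3 to 3 without overlap, and medians of 0.32 to 0.53. In the lists it gave 0 to 1 protease genes higher past both filters (Mmp9, without T1 replicate 2) and 2 to 4 NF-kB and interferon genes (4 without T2 replicate 3, with Stat2 and Tlr3). With a minimum of 50, 0 genes with chemokine-like names, 0 signalling genes and 1 NF-kB and interferon gene were higher. With the wider filters 2 and 1 genes with chemokine-like names were higher and lower, 2 and 5 protease genes, and 12 and 2 NF-kB and interferon genes, 7 signalling genes were lower, and 3 members were lower by the adjusted p-value. The shares of all genes at the wider filters and at the other minimum levels were not computed, so these counts are a description only. Correlations of the deviations were 0.0575, 0.172 and 0.104 between T1 and T2 samples of the same replicate number. Between different numbers they ran from -0.152 to 0.0719. The main fit did not pair the samples, and whether the numbers mark a shared batch was not tested. With the replicate block, Cxcl1 had a log2 fold change of 1.69 (limma adjusted p = 8.28e-05). The sizes of changes in genes with few reads depended on the method, from 3.46 (pseudocount 5) to 5.31 (DESeq2) for Cxcl10 and from -3.85 to -6.99 for Cxcr3. The planned comparison of protein features was not run.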

Other observations

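In 469 kb of chromosome 9 that hold 8 chemokine receptor genes, the receptors Ccr9, Cxcr6, Xcr1 and Ccr1 had at most 2 reads in any library and the other 4 had none. Of the genes between them, Lztfl1, which regulates traffic of proteins to cilia, had 218 ± 22.6 normalized counts in T1 and 424 ± 18.3 in T2 cells (SD, n = 3; log2 fold change -0.96, limma adjusted p = 8.28e-05). Fyco1, an adaptor for autophagosome transport, had 292 ± 88.9 and 285 ± 20.02. Mif, a cytokine that binds Cxcr2 and Cxcr4, was singled out after its values were seen and had 4981 ± 180 normalized counts in T1 and 2878 ± 308 in T2 cells (SD, n = 3; log2 fold change 0.80, limma adjusted p = 2.44e-05).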
